A study of Mus musculus with 6 samples.

Results

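The distal miRNA cluster of the imprinted Dlk1-Dio3 region, from Mir379 to Mir3072 on mouse chromosome 12, was described in RNA bound to Argonaute 2 (AGO2). Its members were taken by position alone: every mature miRNA of the count files whose only hairpin gene lies in the distal part of the region on mm10, upstream of and within the lncRNA gene Mirg. This gave 77 mature miRNAs from 39 hairpins, of 1978 listed. The 39 hairpins span 38.9 kb (chr12:109709060-109747960); 38 are on the plus strand and 1, Mir299b, lies on the minus strand opposite Mir299a. Just outside the upstream limit lies Mir882, with 0 counts in both libraries. The outermost hairpins inside were Mir379, with 78 and 81 counts in replicates 1 and 2, and Mir3072, with 9 and 14. Downstream of the limit the next miRNA gene is Mir1247, also with 0 counts.

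The tissue was cortex of VGLUT2-Cre;Spy3-AGO2 mice at postnatal day 14. In these animals a conditional Spy3-AGO2 allele gives tagged AGO2 to cells in which the VGLUT2-Cre driver is or was active, and the labels give pyramidal neurons as the cell type. Tagged AGO2 was captured through SpyCatcher3 on a resin and cut from a gel between 70 and 150 kDa, so the counts describe AGO2-bound miRNA and not all miRNA in the tissue. The values come from both AGO2-bound miRNA libraries (2 of the 6 libraries in the series; all 6 share the genotype and age), with 66854 and 75658 counts. A count of 0 allows a share of up to 0.00449% and 0.00397%, taken as 3 counts of the total. Nothing in the labels ties a library to an animal, so the spread between the replicates may be technical, and there is no group to compare with. In bulk counts, fewer cells that use a miRNA and less of it per cell cannot be told apart.

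The counts were read for miRNA markers of broad cell classes. No set for pyramidal neurons, inhibitory neurons or astrocytes was included, so the pyramidal label itself was not checked. The 4 neuronal markers (miR-138-5p, miR-9-5p, miR-124-3p and miR-128-3p), all counted in both libraries, together held 26.0% and 26.3% of the counts. The 3 oligodendrocyte markers held 0.0374% and 0.0463% (2 of 3 counted in both libraries), and the 3 endothelial and mural markers held 0.148% and 0.143% (3 of 3). Of the 4 microglial and blood cell markers, at 0.0194% and 0.0159%, 2 were counted in both libraries and miR-223-3p was at 0.

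As background, the cluster is found in placental mammals only and is expressed from the maternal chromosome, where a long transcription unit through Meg3, Rian and Mirg carries the hairpins in one orientation. Each hairpin is cut into a duplex of a 5p and a 3p arm, of which AGO2 keeps mostly one; bases 2 to 8 of the kept arm, the seed, pair with target RNAs. The cluster is abundant in brain, the transcription factor Mef2 raises it in active neurons, and its members are known for effects on dendrites, spines and synaptic strength, such as repression of Limk1 and Pum2 by miR-134-5p.

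Sequences were matched by name for 73 of the 77 members (RefSeq, GRCm38.p6, the assembly of mm10). The most counted members with a sequence are shown here 5′ to 3′, with the seed in capitals, because they hold most of the cluster's counts.
miR-376a-3p: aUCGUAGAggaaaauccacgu
miR-369-5p: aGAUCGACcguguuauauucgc
miR-495-3p: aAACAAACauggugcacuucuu
miR-410-3p: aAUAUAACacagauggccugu
miR-300-3p: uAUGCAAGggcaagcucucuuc
miR-329-3p: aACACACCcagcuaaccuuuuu
miR-369-3p: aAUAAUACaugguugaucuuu
miR-376b-3p: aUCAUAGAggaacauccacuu

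The cluster held 9.54% of the counts in replicate 1 (6381 counts, exact 95% interval 9.32 to 9.77) and 9.55% in replicate 2 (7226 counts, 9.34 to 9.76), a mean of 9.55% ± 0.00438 (SD, n = 2). Intervals cover counting error only, and duplicate reads, where present, make them narrower than they should be. Of the 77 members, 53 were counted in both libraries, 7 in 1 library and 17 in neither. Over all 1978 listed miRNAs 28.0% had a count, against 77.9% of the members. Of the 36 miRNAs of the same region between the start of Meg3 and the cluster, 27 (75%) had a count. The members are unequal: miR-376a-3p alone held 14.3% of the cluster's share, the first 5 members 43.4% and the first 10 members 67.0%. A mean share of at least 0.1% was reached by 20 members, which held 86.5% of the cluster's share.

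**Figure D1:**
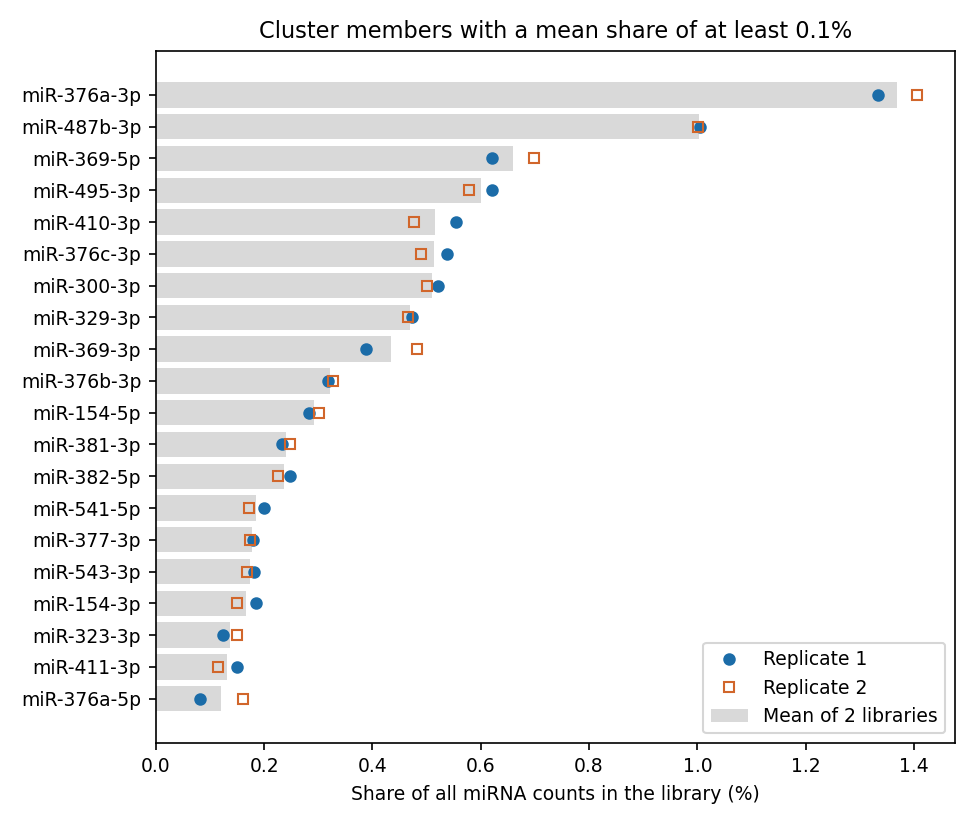
Share of all miRNA counts (%) for the 20 members with a mean share of at least 0.1%, with grey bars for the mean, filled circles for replicate 1 and open squares for replicate 2. miR-376a-3p (1.33% and 1.41%) and miR-487b-3p (1.01% and 1.00%) lie apart from the rest, and miR-376a-5p has the widest gap between libraries for its level.

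miR-376a-3p (Mir376a, chr12:109723781-109723848) had 891 counts in replicate 1 and 1063 in replicate 2, or 1.37% ± 0.0511 of all counts (SD, n = 2), and ranked 14 among all miRNAs. The precursors of the miR-376 group are known substrates of adenosine-to-inosine editing in brain; the files give 1 count per mature miRNA, so edited and unedited reads were not told apart. miR-487b-3p (Mir487b, chr12:109727333-109727414) followed with 672 and 757 counts, 1.00% ± 0.00327. The gaps from miR-376a-3p to miR-487b-3p and from there to the third member were 7.16 and 6.30 times the larger SD of each pair.

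Then came miR-369-5p with 415 and 528 counts (0.659% ± 0.0545) and miR-495-3p, a miRNA known to repress Bdnf, with 415 and 438 (0.60% ± 0.0296; SD, n = 2 each). Their order was not resolved, because they had equal counts in replicate 1. miR-410-3p had 370 and 361 counts (0.515% ± 0.0540), miR-376c-3p 359 and 371 (0.514% ± 0.0330) and miR-300-3p 348 and 379 (0.511% ± 0.0139). These 3 lie within a gap smaller than their SDs and form no order. miR-329-3p, known to repress Mef2a, had 316 and 353 counts (0.470% ± 0.00431), and miR-369-3p 259 and 365 (0.435% ± 0.0672), an order that was reversed in replicate 2. miR-376b-3p had 213 and 247 counts (0.323% ± 0.00556).

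The members from rank 11 to 20 of the cluster ran from miR-154-5p at 0.292% to miR-376a-5p at 0.121% of the counts. They include miR-382-5p (166 and 171 counts), miR-541-5p (133 and 130 counts), which is known to repress the synaptic vesicle gene Syn1, and miR-377-3p (120 and 132 counts). miR-154-5p lay above miR-381-3p (156 and 188 counts), and miR-382-5p above miR-541-5p, in both libraries and by more than the larger SD of each pair. From miR-541-5p down through miR-377-3p, miR-543-3p, miR-154-3p, miR-323-3p and miR-411-3p to miR-376a-5p, no neighbouring pair kept its order in both libraries.

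Of 7 members best known from work on synapses, miR-495-3p, miR-410-3p, miR-329-3p and miR-541-5p were among the 20 above 0.1%, and the other 3 were below it. miR-134-5p had 16 counts in replicate 1 and 38 in replicate 2 (0.0371% ± 0.0186), rank 189 of all miRNAs. miR-485-5p, known to repress the vesicle protein gene Sv2a, had 10 and 6 counts (0.0114% ± 0.00497). miR-379-5p, from the first hairpin of the cluster, had 40 and 37 counts (0.0544% ± 0.00773). These 3 lay below each of the 20 members above 0.1% in both libraries.

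The 17 members at 0 in both libraries were miR-299b-5p, miR-299b-3p, miR-679-5p, miR-679-3p, miR-654-5p, miR-654-3p, miR-453, miR-380-5p, miR-1197-5p, miR-758-5p, miR-494-5p, miR-1193-5p, miR-668-5p, miR-496a-5p, miR-541-3p, miR-410-5p and miR-3072-5p. Of the hairpins, Mir299b, Mir679, Mir654 and Mir453 thus had no count, and 35 of 39 had at least 1. The letters of both miR-299b arms are contained in those of the miR-299a arms, so how reads were split between that pair is uncertain; Mir299a itself had 3 and 1 counts.

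Position along the cluster was then examined. The 7 hairpins from Mir376c to Mir487b lie within 4.70 kb and held 44.3% of the cluster's share, 4.20% and 4.26% of all counts in replicates 1 and 2. Of these 7, Mir654 had 0 counts, so a hairpin without counts sits between Mir376c (0.514% ± 0.0340) and Mir376b (0.392% ± 0.0173; SD, n = 2 each). Mir376a, 241 bases further on, was the most counted hairpin, with 1.41% and 1.57%. Mir300 (0.549% ± 0.0172), Mir381 (0.282% ± 0.0101) and Mir487b (1.00% ± 0.00233) complete the stretch. Its limits were chosen after the values were seen, and the share is a description.

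The largest gap in the cluster, 4368 bases, lies between Mir544 and Mir382. The 25 hairpins upstream of it held 67.9% of the cluster's share and the 14 downstream 32.1%. In the downstream group, Mir369 (chr12:109743418-109743496) led with 1.01% and 1.18%, followed by Mir410 (chr12:109743715-109743795) with 0.553% and 0.477% and Mir154 (chr12:109738433-109738498) with 0.468% and 0.451%. Mir412, which ends 49 bases before Mir369, had 0.0329% and 0.0330%. Mir409, 52 bases before Mir412, had 0.136% and 0.130%. These close neighbours all lie in the span of Mirg, and Mir412 was below Mir409, Mir369 and Mir410 in both libraries. Mirg (chr12:109734981-109749458) holds 10 of the hairpins, with 28.1% of the cluster's share; the other 29 lie in no other gene's span in the RefSeq table used, which gives no exons.

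Place in the row said little about level. Spearman's rho between a hairpin's place in the row and its mean share was 0.21 over 39 hairpins (0.22 in replicate 1, 0.21 in replicate 2), and 0.11 between the shares of adjacent hairpins over 38 pairs. All points share the same 2 libraries and, as background, the same primary transcription unit, so these are descriptions.

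**Figure D2:**
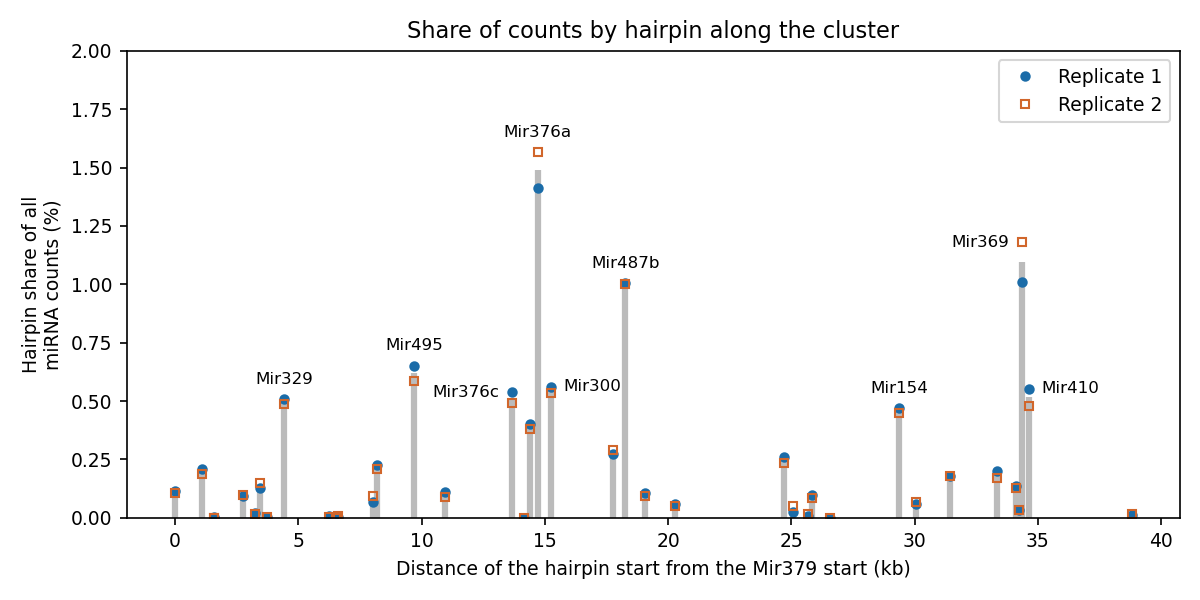
Share of all miRNA counts (%) of each of the 39 hairpins (both arms summed) against the distance of its start from the start of Mir379 (kb), with grey lines for the mean, circles for replicate 1 and squares for replicate 2. The 9 hairpins with the highest means are named; Mir376a, Mir369 and Mir487b reach 1.00% or more in both libraries, and most other hairpins lie far lower (median 0.0999%).

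The arms of each hairpin were compared within each library, where depth and locus are shared. An arm was called major where the exact 95% interval of the 5p share excluded 50% in both libraries, among hairpins with at least 20 counts and both arms listed. Of the 38 hairpins with both arms listed, 30 could be classed: 20 had a major 3p arm, 7 a major 5p arm and 3 neither. Of the 140 hairpins outside the cluster classed by the same rule, 51 (36.4%) had a major 3p arm and 71 (50.7%) a major 5p arm, against 66.7% and 23.3% in the cluster. By counts, the 3p arms held 78.1% and 77.5% of the counts of the classed cluster hairpins in replicates 1 and 2. Over the classed hairpins outside the cluster they held 42.9% and 42.8%. The proximal miRNAs of the same region, between the start of Meg3 and the cluster, stood at 44.8% and 44.1% over 12 hairpins. That share depends much on Mir136, whose 5p arm alone held 40.4% of the proximal share. It had 1845 and 2092 counts of the 5p arm against 189 and 210 of the 3p arm. The proximal share without Mir136 was not computed. By hairpin the proximal miRNAs lay nearer the cluster, with 7 of 12 (58.3%) major 3p and 4 (33.3%) major 5p. The difference between the cluster and the classed hairpins outside it exceeds the spread between libraries, but with 2 libraries no exact permutation test can reach p under 0.05.

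The 7 hairpins with a major 5p arm were Mir539, Mir382, Mir134, Mir154, Mir541, Mir412 and Mir369. In Mir541 the 5p arm had every count (133 and 130 against 0 and 0), in Mir382 it had 96.0% and 96.6%, and in Mir134 100% and 97.4%. In Mir369 and Mir154 both arms were well counted. The 5p share of Mir369 was 61.6% (95% interval 57.8 to 65.3) and 59.1% (55.8 to 62.4), and that of Mir154 60.4% (54.7 to 65.8) and 66.9% (61.6 to 71.8). All 7 lie in the 3′ part of the cluster, from Mir539 on, a limit drawn after the values were seen. That part is mixed: Mir485, Mir496a, Mir377, Mir410 and Mir3072 had a major 3p arm, and Mir544 and Mir409 neither. Upstream of Mir539 every classed hairpin except Mir379 had a major 3p arm.

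**Figure D3:**
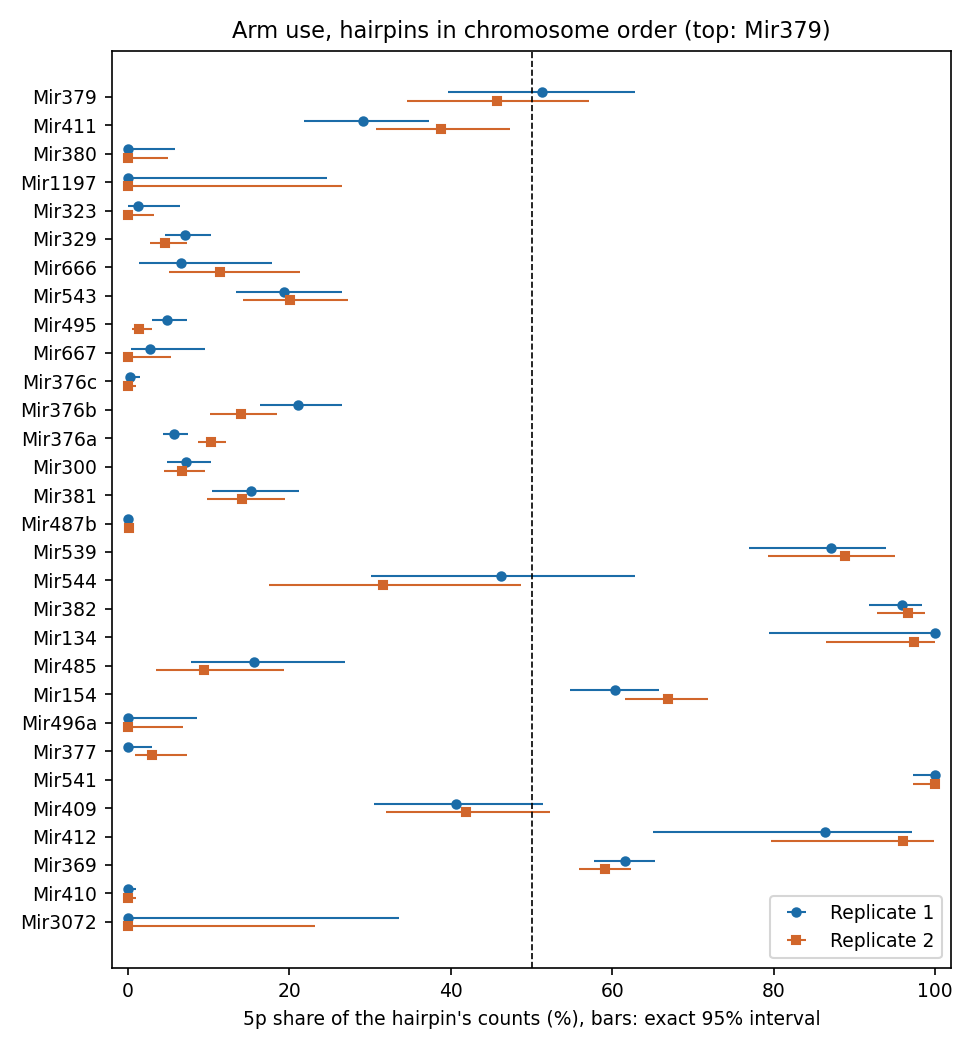
Share of the 5p arm in each hairpin's counts (%), for the 30 classed hairpins in chromosome order from Mir379 at the top, with circles for replicate 1, squares for replicate 2, bars for the exact 95% interval and a dashed line at 50%. Most points lie left of the line; the 7 hairpins to its right begin with Mir539.

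Mir379, Mir544 and Mir409 had no major arm. Mir379 gave 40 and 37 counts of the 5p arm and 38 and 44 of the 3p arm, a 5p share of 51.3% (39.7 to 62.8) and 45.7% (34.6 to 57.1). Mir409 gave 37 and 41 counts of the 5p arm against 54 and 57, and Mir544 gave 18 and 12 against 21 and 26. Mir411, classed as 3p, had 41 and 55 counts of the 5p arm against 100 and 87 of the 3p arm. Mir379, Mir411, Mir409, Mir154 and Mir369, in which both arms were well counted, are printed from their RefSeq sequences with both mature arms in capitals, the 5p arm first.
Mir379: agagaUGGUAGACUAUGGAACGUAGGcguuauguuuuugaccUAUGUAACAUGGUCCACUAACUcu
Mir411: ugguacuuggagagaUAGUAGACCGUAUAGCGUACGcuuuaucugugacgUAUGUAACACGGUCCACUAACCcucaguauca
Mir409: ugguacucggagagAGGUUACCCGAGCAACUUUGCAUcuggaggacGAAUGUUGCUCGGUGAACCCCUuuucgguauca
Mir154: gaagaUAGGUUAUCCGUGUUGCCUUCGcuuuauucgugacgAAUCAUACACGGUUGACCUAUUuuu
Mir369: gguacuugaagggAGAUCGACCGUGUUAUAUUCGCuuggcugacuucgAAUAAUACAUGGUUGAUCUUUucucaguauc

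The 5p shares of the 2 libraries lay within a median of 2.1 percentage points of each other over the 30 hairpins. The widest gap, 14.6 points, was that of Mir544, with 39 and 38 counts in all. The higher arm was the same in both libraries in 29 of 30 hairpins, with Mir379 as the exception. In 6 hairpins (Mir380, Mir1197, Mir496a, Mir541, Mir410 and Mir3072) the minor arm had no count in either library. Among these, Mir410 had 370 and 361 counts of its 3p arm.

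Seeds were compared next, over the 73 members with a sequence. They carry 66 different seeds, so the cluster is not 1 seed family: 7 seeds were shared by 2 members each, and these 14 members held 3.30% of the cluster's share. The 4 members with no sequence row, which held 16.1% of the cluster's share, were not compared. Any seed that they share with another member was missed. The counted pairs were miR-411-3p with miR-379-3p (0.206% and 0.173% of all counts together) and miR-376b-5p with miR-376c-5p, of which miR-376c-5p had 1 and 0 counts. The latter differ by U19G only, read from miR-376c-5p to miR-376b-5p and counted from the 5′ end, so their reads may not be fully told apart. Of the other 5 pairs, miR-379-5p with miR-1193-5p and miR-299a-3p with miR-299b-3p had 1 counted member each, and 3 had none. The 3 most counted of the 7 pairs are shown with the shared seed in capitals.
miR-379-3p: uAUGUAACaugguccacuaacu
miR-411-3p: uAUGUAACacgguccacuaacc
miR-376b-5p: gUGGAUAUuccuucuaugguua
miR-376c-5p: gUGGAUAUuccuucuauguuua
miR-379-5p: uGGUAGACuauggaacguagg
miR-1193-5p: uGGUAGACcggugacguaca

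Among the members with a sequence, the best counted relatives differ within the seed. miR-376b-3p and miR-376a-3p differ by A4G, C13A and U20G, the first inside the seed, and had 213 and 247 against 891 and 1063 counts. miR-300-3p and miR-381-3p differ by G4A, U21G and C22U and had 348 and 379 against 156 and 188 counts. miR-543-3p and miR-495-3p differ by U6A, U7A, G9A and C10U; they had 121 and 127 against 415 and 438 counts. Within each pair the more counted member led in both libraries, by more than the spread between libraries. The less counted partners are printed here for comparison with the first list.
miR-381-3p: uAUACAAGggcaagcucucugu
miR-543-3p: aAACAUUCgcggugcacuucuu

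When seeds 1 base apart were joined, 45 groups remained among the 73 members with a sequence. The 4 members without one, among them miR-487b-3p (1.00% of all counts) and miR-376c-3p (0.514%), are in no group. Placing them could change the sizes and the order of the groups. Among the groups as formed, that of miR-376a-3p and miR-376b-3p was the largest by counts, with 1.69% ± 0.0567 of all counts (SD, n = 2). Next came a group of 17 members, all 5p arms but miR-453, with 0.912% ± 0.0543. In that group 9 of the 17 had a count, and miR-369-5p alone held 0.659% of all counts. miR-300-3p and miR-381-3p together held 0.752% ± 0.00315, miR-410-3p, miR-411-3p and miR-379-3p 0.705% ± 0.0775, and miR-369-3p, miR-154-3p and miR-485-3p 0.681% ± 0.0387.

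Few of these seeds occur elsewhere among the counted miRNAs. Of the 54 seeds with a counted member, 6 were also carried by a counted miRNA outside the cluster. For the abundant ones the other carrier was far less counted: miR-362-3p shares the seed of miR-329-3p at 0.0229% against 0.470%, miR-344d-3p and miR-344e-3p share that of miR-410-3p at 0.00986% against 0.515%, and miR-1192 shares that of miR-495-3p at 0.000748% against 0.60%. The reverse held for miR-412-3p at 0.00290%, whose seed miR-1983 carries at 0.287%, and for miR-377-5p at 0.00264%, whose seed miR-672-5p carries at 0.0311%. The last seed, that of miR-1193-3p at 0.00537%, is carried by miR-370-5p of the proximal miRNAs at 0.00207%.

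A short stretch recurs in the 3p arms, in some of them overlapping the seed. The letters CAUGG or CACGG, searched in the mature strand after the sequences had been read, occur in 11 of the 35 3p arms with a sequence (31.4%) and in 62 of the 1606 other listed miRNAs with a sequence (3.86%). The 11 are miR-379-3p, miR-411-3p, miR-1197-3p, miR-323-3p, miR-494-3p, miR-495-3p, miR-382-3p, miR-485-3p, miR-154-3p, miR-496a-3p and miR-369-3p, from both ends of the cluster, and together they held 1.70% ± 0.00387 of all counts (SD, n = 2). The letters GGUUG occur in 9 of 37 5p arms (24.3%) and in 2.49% of the other listed miRNAs. Most of these 5p arms were not counted: miR-380-5p, miR-1197-5p, miR-758-5p, miR-494-5p, miR-496a-5p and miR-410-5p had 0 counts in both libraries. The others were miR-377-5p (0 and 4 counts), miR-134-5p (16 and 38) and miR-381-5p (28 and 31). The counts of the 11 range from 4 and 3 for miR-494-3p to 415 and 438 for miR-495-3p.

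By counts, the first base differed between the cluster and the other miRNAs. AGO2 holds the first base of a miRNA in a pocket that favours uracil and adenine. Of the cluster's counts with a sequence, 67.0% in each library began with adenine and 22.8% and 22.6% with uracil. Outside the cluster, 17.5% and 17.8% began with adenine and 75.3% and 74.9% with uracil. By counts the proximal miRNAs lay near the cluster, with 58.0% ± 0.552 adenine and 28.7% ± 0.414 uracil (SD, n = 2). That adenine share rests largely on miR-136-5p, which begins with adenine and alone held 40.4% of the proximal share. The proximal shares without it were not computed. Over all 36 listed proximal miRNAs, counted or not, 12 began with adenine and 14 with uracil. By number of miRNAs the gap was smaller: among miRNAs with at least 10 counts, 18 of 44 members (40.9%) and 56 of 229 others (24.5%) began with adenine. Uracil differed less by number, at 18 of 44 members (40.9%) and 106 of 229 others (46.3%). Without miR-376a-3p the adenine share of the cluster was 60.2%, and without the 4 most counted miRNAs elsewhere the adenine share outside was 22.1%. The 4 members with no sequence row, miR-376c-3p, miR-487b-3p, miR-539-3p and miR-485-5p, held 16.1% of the cluster's share and are not in these numbers.

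**Figure D4:**
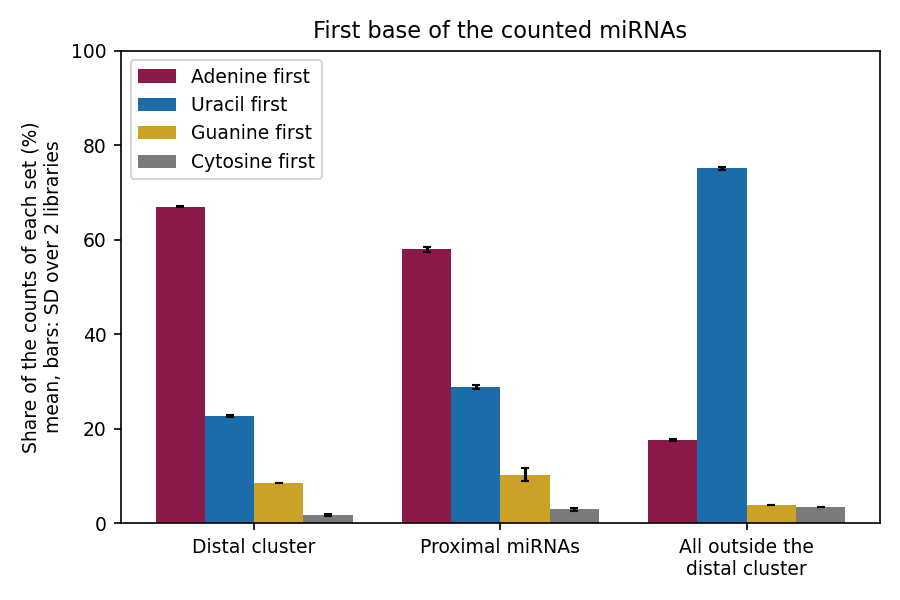
Share of counts (%) by first base in the distal cluster (73 miRNAs), the proximal miRNAs (36) and all listed miRNAs outside the distal cluster (1606, proximal ones included), as the mean of 2 libraries with bars for the SD. By counts, adenine leads in both parts of the region and uracil leads outside the cluster. In the proximal part miR-136-5p, which begins with adenine, alone holds 40.4% of the share.

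Within hairpins, 21 of the 25 major arms with a sequence began with adenine or uracil (10 and 11), as did 18 of their 25 minor arms (12 and 6). Among the classed hairpins outside the cluster 85 of 108 major arms (78.7%) and 45 of 108 minor arms (41.7%) did. The pairing of the 5′ ends, another feature known to guide the choice of arm, was read from RNAfold folds of 22 hairpins with a major arm. The first 4 bases of the major arm had fewer hydrogen bonds than those of the minor arm in 8 hairpins, equally many in 6 and more in 8. The medians were 8.5 and 9. Members with at least 10 counts were 21 to 25 bases long, with a median GC content of 44.7% (44 members), against 47.6% for 229 other miRNAs.

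The libraries were then compared member by member. Over the 310 miRNAs with at least 10 counts they differed by more than sampling alone gives (chi-square 598 on 309 degrees of freedom), and they were taken as 2 libraries from the labels. Each of the 310 miRNAs with at least 10 counts was tested between replicates 1 and 2 with an exact two-sided binomial test, adjusted by Benjamini-Hochberg over all 310. The test compares 2 libraries and not conditions, and duplicate reads, where present, make its p-values smaller than they should be. Of all 310, 4 (1.29%) were called, and of the 48 members tested 1 was called. The called member was miR-376a-5p, with 54 counts (0.0808%) and 122 counts (0.161%; exact adjusted p = 0.00223). The 3p arm of the same hairpin had 891 and 1063 counts, and was not called, so the 5p share of Mir376a was 5.71% (95% interval 4.32 to 7.39) in replicate 1 and 10.3% (8.62 to 12.2) in replicate 2.

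miR-495-5p, with 21 and 6 counts, did not pass (exact adjusted p = 0.0605), nor did miR-134-5p, with 16 and 38 (exact adjusted p = 0.203). With edgeR's TMM library sizes miR-495-5p passed too (exact adjusted p = 0.0444), and 11 of the 310 were called in all. The log2 ratio of replicate 2 over replicate 1, on CPM + 1, had an SD of 0.51 over the 48 members and 0.60 over the 310 miRNAs, with medians of -0.04 and 0.02, and 45 of the 48 members lay within 2-fold. At an unadjusted p under 0.05 there were 6 members and 46 miRNAs in all.

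**Figure D5:**
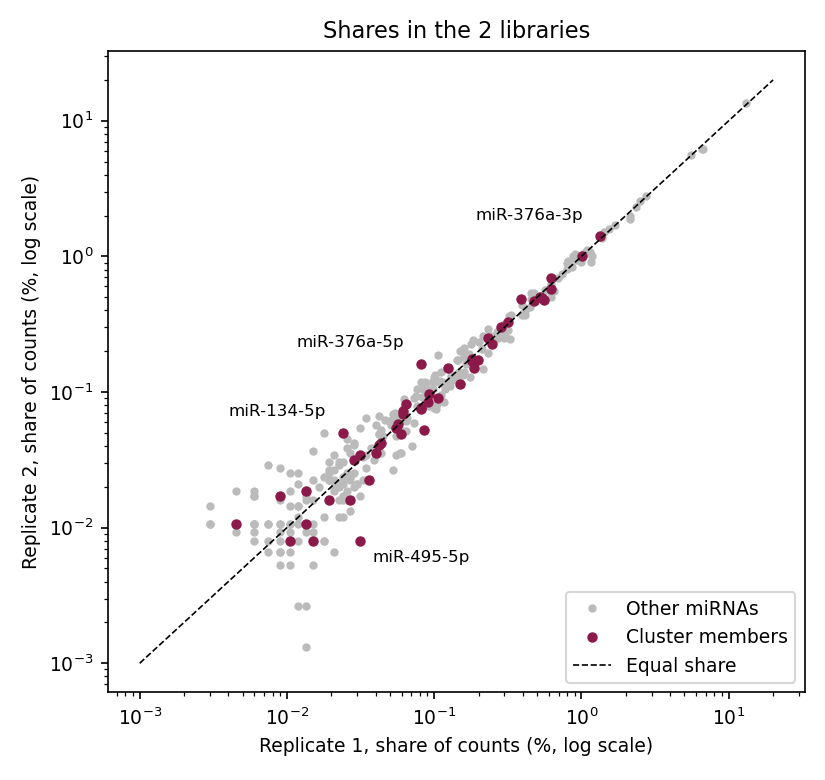
Share of counts (%) in replicate 2 against replicate 1, both on log scales, for the 310 miRNAs with at least 10 counts; dark points are the 48 cluster members and the dashed line marks equal shares. miR-376a-5p and miR-134-5p lie above the line and miR-495-5p below it, while miR-376a-3p lies on it.

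Beside the cluster, the 36 proximal miRNAs from 20 hairpins, among them the Rtl1-antisense miRNAs, held 6.87% and 6.81% of the counts (6.84% ± 0.0470, SD, n = 2). They were more concentrated: miR-136-5p took 40.4% of their share and the first 5 took 84.3%, against 14.3% and 43.4% in the distal cluster. Both parts together held 16.4% of the counts in each library, and the distal cluster made up 58.1% and 58.4% of that sum.

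On the target side, the deposited list of 2197 peaks has no values per library. None of its peaks had its midpoint in the cluster region and 0 of the 39 hairpins touched one, while 31 peaks lay between the start of Meg3 and the cluster region, of which none touched any of the 20 proximal hairpins. The nearest peak upstream (chr12:109680802-109680874) ended 28.2 kb before Mir379, and the nearest downstream lay 1921 kb past Mir3072. Of 12 genes known as targets of cluster members, chosen from general knowledge with earlier results of these data known, 2 had a peak in their span, against 4.43% of 21887 protein-coding genes with at least 1. Of the 12, 1 had at least 2 peaks, against 1.43% of protein-coding genes. The protein-coding genes were not matched to the 12 for length or expression, and nothing was tested on so few genes. Pum2, an RNA-binding repressor and a known target of miR-134-5p, had 5 peaks (between chr12:8750034 and 8752524, plus strand), and Mef2a, a known target of miR-329-3p, had 1 (chr7:67233735-67233829, minus strand). Limk1, Creb1, Dcx, Sv2a, Bdnf, Syn1, Cnih2, Dlgap3, Prr7 and Src had 0. Whether these peaks hold a site of a cluster miRNA was not tested here.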

How the data were processed

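AGO2-bound miRNA was counted in 2 libraries of mouse cortex. The authors deposited raw counts per mature miRNA in 1 table per library, and a list of peaks for the whole series whose score column is 0 throughout, so no peak value was used. The deposited count files are named as not deduplicated. Per the submitters' processing notes the build was mm10, the tools included Bowtie2 2.4.2 and STAR 2.5.2a, and cutadapt 2.10, deepTools 3.1.3, UMI-tools and DESeq2 1.36.0 were also used; which tool made which file is not given in the sources used here.

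Shares are counts over the library total, with mean and SD (n = 2) and exact Clopper-Pearson 95% intervals (scipy 1.17.1). Libraries were compared per miRNA with an exact two-sided binomial test and Benjamini-Hochberg adjustment at 0.05. It was tested on simulated data of 308 miRNAs, where 18 of 20 changed 4-fold, 13 of 19 changed 2-fold and 2 of 269 unchanged were called. The simulated counts held sampling error only (Poisson draws). The real libraries differed by more than that, so these call rates need not hold for them. edgeR 4.0.16 and DESeq2 1.42.0 gave other library sizes. Hairpins were folded with RNAfold 2.7.2. Positions and sequences are RefSeq's (GRCm38.p6).

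Named were members of at least 0.1% of counts, members of shared seeds, both arms of hairpins with arms within 2-fold, the best known synaptic members, members called between libraries, and the first and last hairpin. Others were named after their values were seen: the members at 0, hairpins beside leading ones, motif carriers and miR-495-5p. The members and lists were chosen with earlier results of these data known. Target and input libraries have no counts analysed here.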

Additional observations from a re-analysis of the deposited data

How the results depend on the processing

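The cluster's share was 11% with miR-128-3p, the most counted miRNA, left out of the total, 9.60% over miRNAs with at least 10 counts and 9.53% from Mir379 to Mir410 only; the proximal share was 7.89% without miR-128-3p. With that total every share rises by arithmetic, and for 16 of the 20 members the rise exceeded 1 SD. Without either replicate the cluster's share was 9.54% to 9.55%, the proximal share 6.81% to 6.87%, Spearman's rho 0.21 to 0.22, hairpins with a major 3p arm 20 to 21 and with a major 5p arm 7. Under edgeR's TMM library sizes 2 members were called between the libraries, and 11 miRNAs in all against 4. With a minimum of 50 counts 7 miRNAs were called in all. Over the alternatives the exact adjusted p of miR-376a-5p ran from 0.00139 to 0.00398 and that of miR-495-5p from 0.0444 to 0.108. By the first base pair only, the major arm had fewer bonds in 5 of 22 hairpins, equally many in 15 and more in 2. Of the target genes, 1 had at least 2 peaks. Changes of the total or of the members counted alter the shares by arithmetic. For the other changes the cause was not tested. The other alternatives kept their counts within 1.5 times of the main ones. No paired analysis was possible because both libraries belong to 1 group. Depth limits members under 10 counts, which were not tested.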
